A study of Mus musculus with 30 samples.

Results

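Tnfsf8, Pdcd1 and Hcar2 are 3 of the 13483 gene symbols measured in CD11B bead-isolated microglia of mouse offspring, and each is listed with 1 of 14225 transcripts. They were chosen by their values in repopulated microglia (MG-REP) of offspring of immune-activated dams, and put forward as gained in both repopulated groups. Of the 55 transcripts that were higher in MIA + MG-REP than in MIA + CTRL at an adjusted p under 0.05 with no overlap of the libraries, these 3 had the largest log2 fold changes. That comparison is therefore described here without a test. All 3 carry the authors' label of the repopulated adult microglia module (REP-AM), which holds 1134 transcripts. The authors describe this module as enriched in repopulated microglia of offspring of saline-treated dams. They list MIA + MG-REP among the groups enriched for the adult microglia module instead. The modules were clustered from these same libraries, so the label is not independent support for a gain in either group.

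All mice were C57BL6/J, and the study asked how maternal immune activation and the replacement of microglia alter gene expression. Dams received saline (Saline) or poly(I:C), a mimic of viral double-stranded RNA (MIA), on embryonic day 9.5. Offspring of both kinds were taken at E17, P7, P20 and P60, and the P60 mice had eaten control chow (CTRL) or chow with the CSF1R inhibitor PLX5622 after weaning, followed by control chow during which microglia refilled the brain (MG-REP). Each of the 10 groups had 3 libraries, made from 1 litter at E17, from pooled brains of 3 mice at P7 and from 1 brain of 1 mouse at P20 and P60. Both sexes were used, and the labels give neither sex, litter nor batch, so p-values measure the spread between these libraries. The bead isolation takes every CD11B+ cell, so a gene can be higher because the cells hold more of its RNA or because more cells hold it, and these cannot be told apart.

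Tnfsf8 encodes CD30 ligand, a membrane protein of the TNF superfamily that engages the receptor CD30 (Tnfrsf8) and thereby TRAF adaptors and NF-kB. Pdcd1 encodes PD-1, an inhibitory receptor best known from activated T cells and also found on myeloid cells, whose ligands are PD-L1 (Cd274) and PD-L2 (Pdcd1lg2). Hcar2 encodes a Gi-coupled receptor for beta-hydroxybutyrate and niacin that is present on microglia, macrophages, neutrophils and adipocytes. Microglia depend on CSF1R signaling, and once its inhibition ends the emptied brain is refilled, mainly by division of surviving microglia.

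The genes lie on different chromosomes of GRCm38.p6, the build that corresponds to the authors' mm10. Tnfsf8 (NM_009403) spans chr4:63831202-63861508 on the minus strand with 4 exons. Pdcd1 (NM_008798) spans chr1:94038305-94052553 on the minus strand with 5 exons. Hcar2 (NM_030701) is a gene of 1 exon at chr5:123863570-123865516, also on the minus strand. No annotated gene overlaps any of them, and none of the 40-base windows of their transcripts, the length of the reads, occurs in the transcript of another gene. Each span covers all RefSeq transcripts of the gene. The 250 bases just before the transcription start of Pdcd1 are shown because Pdcd1 was several-fold higher in MG-REP. They are from RefSeq on GRCm38.p6, 5′ to 3′ on the minus strand, at chr1:94052554-94052803, and capitals mark a motif that was searched for. The entry of Tnfsf8 is not shown, because the start it uses lies inside the span given above.
Pdcd1: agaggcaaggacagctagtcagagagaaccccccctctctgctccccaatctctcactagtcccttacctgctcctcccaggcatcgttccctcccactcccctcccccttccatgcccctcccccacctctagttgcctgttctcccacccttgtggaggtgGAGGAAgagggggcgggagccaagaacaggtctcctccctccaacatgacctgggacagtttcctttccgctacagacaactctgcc
Both strands were searched for the PU.1 core GAGGAA, the AP-1 motif TGANTCA and the NF-kB motif. The only match in this sequence was 1 PU.1 core, 87 bases before the start. Of 32851 promoters of the same length, 23.3% held this core, 6.75% the AP-1 motif and 7.25% the NF-kB motif. A match is a description of letters and not a measured binding site.

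The deposited values are TPM, a measure of transcript abundance scaled for transcript length and library size. Steps between low values pointed to about 7890000 to 12660000 assigned reads per library. Of all libraries, 2 stood apart in ways that touch these genes. Library 2 of Saline + MG-REP had a summed TPM of neutrophil markers of 5886, against 64.7 and 353 in libraries 1 and 3, and P20 Saline library 3 had a Hcar2 level far above the other P20 libraries. The comparison of Saline + MG-REP with Saline + CTRL is also given without the first for the 3 genes. The Hcar2 comparisons that use P20 Saline are also given without the second. Microglial identity was present in all libraries: all 12 listed microglia markers were measured and summed to between 18132 and 59468 TPM. The sum was lower in Saline + MG-REP, 28001 to 31714 TPM, than in Saline + CTRL, 41070 to 59468 TPM, and 10 of the 12 were called lower there (14.9% of all transcripts were), with a median log2 fold change of -1.18 against -0.14 over all transcripts. The purinergic receptor gene P2ry12 fell from a mean of 3974 to 828 TPM (limma adjusted p = 7.22e-08), and Sall1, a microglial transcription factor, was at 53.6 to 175 TPM against 567 to 710 TPM in Saline + CTRL. In MIA + MG-REP none of the 12 was called, the sum of 45770 to 51136 TPM overlapped that of MIA + CTRL, and Sall1 was at 538 to 600 TPM. The part of this difference in the levels of the 3 genes was not tested.

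Tnfsf8 was near 0 TPM before adulthood and far above every other group in both repopulated groups. In Saline offspring it measured 0, 0.29 and 0.10 TPM at E17, 0.12, 0.21 and 0.10 at P7, and 0.71, 0.25 and 1.28 at P20. In MIA offspring it measured 0.21, 0.31 and 0.19 TPM at E17, 0.46, 0 and 0.16 at P7, and 0.59, 1.23 and 0.67 at P20. These levels rest on an estimated 0 to 4 reads per library at E17 and P7 and 2 to 10 reads at P20, so differences among the youngest groups were not detectable at this depth. At P60 it measured 2.00, 1.23 and 2.94 TPM in Saline + CTRL and 2.66, 1.12 and 1.99 TPM in MIA + CTRL. In Saline + MG-REP it reached 56.0, 48.4 and 57.2 TPM, and in MIA + MG-REP 32.9, 30.9 and 28.3 TPM. No library of either MG-REP group overlapped any of the other 24 libraries, and the estimated reads were 260 to 522 against at most 27. On the rank scale, its group mean lay above 1.67% of transcripts at E17 in Saline offspring, 22.8% for Saline + CTRL and 75.9% for Saline + MG-REP.

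Pdcd1 was low at every age and several-fold higher after repopulation. In Saline offspring it measured 1.64, 2.95 and 2.67 TPM at E17, 0.68, 1.96 and 1.55 at P7, and 1.79, 2.31 and 1.78 at P20. In MIA offspring it measured 1.48, 2.91 and 1.34 TPM at E17, 2.39, 2.93 and 2.02 at P7, and 1.63, 2.14 and 4.13 at P20. The ranges of these 6 groups were largely shared, with 5 to 32 estimated reads per library. At P60 the values were 4.16, 5.27 and 4.15 TPM in Saline + CTRL and 3.07, 2.59 and 3.75 TPM in MIA + CTRL. In Saline + MG-REP they were 47.8, 42.0 and 30.1 TPM, and in MIA + MG-REP 29.9, 33.6 and 24 TPM. The lowest MG-REP library thus stood at 24 TPM and the highest of the other 24 libraries at 5.27 TPM.

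Hcar2 differed from the other genes in that it was well expressed at all ages. In Saline offspring it measured 21.5, 21.6 and 21.6 TPM at E17, 33.8, 21.3 and 20.1 at P7, and 18.9, 35.4 and 222 at P20. In MIA offspring it measured 12.5, 27.6 and 12.6 TPM at E17, 27.0, 23.4 and 16.7 at P7, and 34.9, 29.7 and 38.0 at P20. Only P20 Saline library 3 left the range of 12.5 to 41.9 TPM that held the other 23 libraries outside MG-REP. At P60 the values were 41.9, 26.7 and 23.96 TPM in Saline + CTRL and 39.3, 16.1 and 15.6 TPM in MIA + CTRL. In Saline + MG-REP they were 231, 263 and 208 TPM, and in MIA + MG-REP 232, 223 and 145 TPM. The MG-REP libraries therefore overlapped 1 library of another group, P20 Saline library 3, and no other. As TPM are scaled for length, Hcar2 had the highest level of the 3 genes in every one of the 30 libraries. Its mean in Saline + MG-REP exceeded 95.2% of transcripts.

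**Figure D1:**
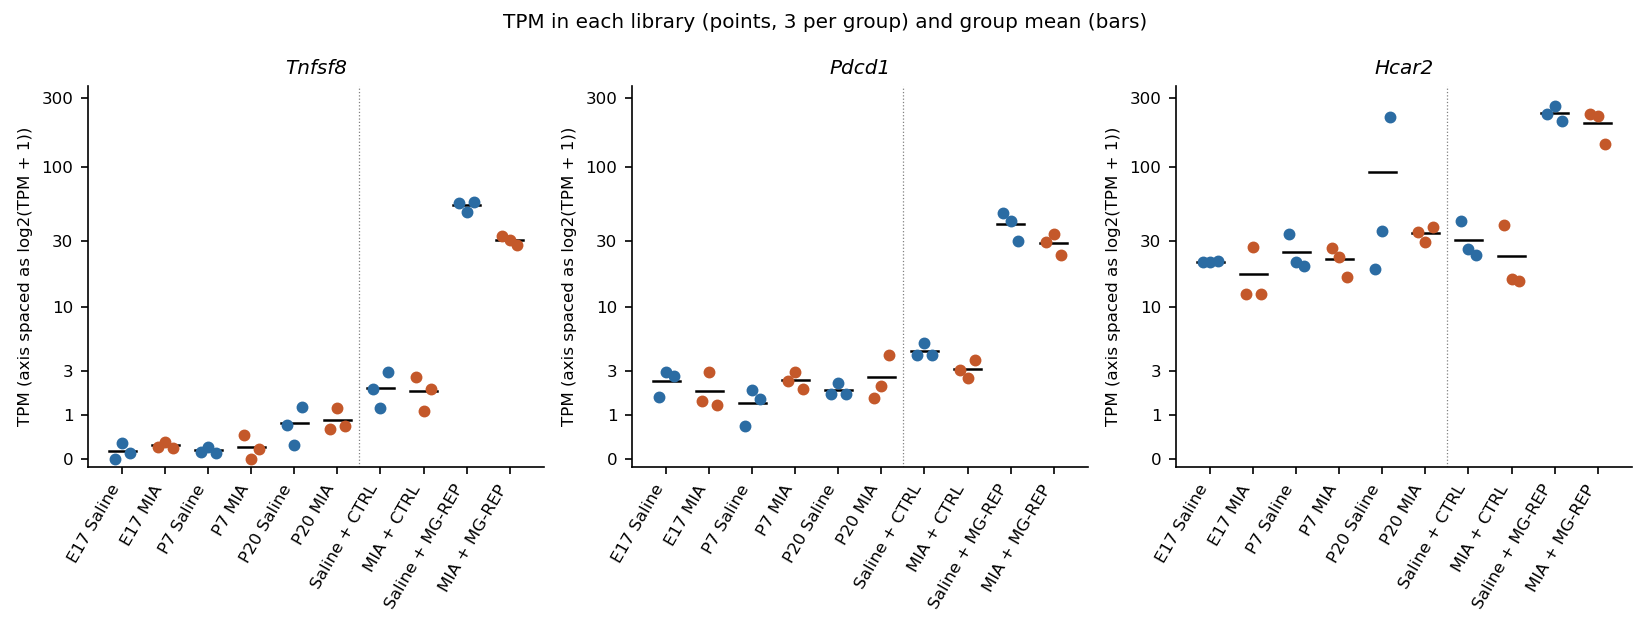
TPM of Tnfsf8, Pdcd1 and Hcar2 in the 30 libraries, on an axis spaced as log2(TPM + 1), with 3 points (libraries) and a bar (mean) per group, Saline in blue and MIA in orange, and P60 groups to the right of the dotted line. The 6 MG-REP libraries sit above all others for Tnfsf8 and Pdcd1, and for Hcar2 above all but P20 Saline library 3 at 222 TPM.

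Ordered by mean, Tnfsf8 ran from 0.13 TPM in E17 Saline through 2.06 TPM in Saline + CTRL to 30.7 ± 2.28 (SD, n = 3) for MIA + MG-REP and 53.9 ± 4.79 for Saline + MG-REP. Each of the first 7 groups overlapped the next one in that order, and the only gaps were below and above MIA + MG-REP. Pdcd1 ran from 1.40 ± 0.65 TPM in P7 Saline to 29.2 ± 4.85 for MIA + MG-REP and 39.96 ± 9.04 for Saline + MG-REP, and these last groups overlapped. Its gaps lay between MIA + CTRL (3.14 ± 0.58) and Saline + CTRL (4.53 ± 0.64), and between Saline + CTRL and MIA + MG-REP. Hcar2 ran from 17.6 ± 8.69 TPM in E17 MIA to 200 ± 48.1 in MIA + MG-REP and 234 ± 27.6 in Saline + MG-REP, and every group overlapped its neighbor.

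The comparison of Saline + MG-REP with Saline + CTRL uses 6 libraries outside the contrast that ranked the genes. The genes were, however, put forward as gained in both repopulated groups, with this outcome known. Its p-values therefore describe the difference against the spread and are not independent support. All 3 genes were called higher, where 11.9% of all transcripts were called higher and 14.9% lower at an adjusted p under 0.05 (limma on log2(TPM + 1), Benjamini-Hochberg over 14225 transcripts). The share of higher among the called transcripts was 44.3%, against 57.5% after median-ratio scaling of the TPM and 51.1% after quantile normalization. Tnfsf8 was 26.2-fold higher by mean TPM, a log2 fold change of 4.2 ± 0.23 (SE; limma adjusted p = 3.51e-12), the 19th largest of all transcripts. Outside MG-REP it had at most 27 estimated reads per library. The authors kept only genes with a CPM of 2 or more in at least 3 libraries. Tnfsf8 may therefore have entered the table only through its MG-REP libraries, which would favor a rise in MG-REP in advance. Pdcd1 was 8.83-fold higher, a log2 fold change of 2.87 ± 0.26 (limma adjusted p = 9.80e-09). Hcar2 was 7.59-fold higher, a log2 fold change of 2.92 ± 0.53 (limma adjusted p = 0.000164). All 3 were called in each of 14 other fits. The largest drop was that of Hcar2 to 2.22 with Xist as a covariate (limma adjusted p = 0.0141).

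In MIA offspring, where the genes were chosen, the same quantities are a description. Tnfsf8 was 16.0-fold higher in MIA + MG-REP than in MIA + CTRL by mean TPM (log2 fold change 3.47), Hcar2 8.44-fold (3.12) and Pdcd1 9.30-fold (2.86). Only 0.387% of transcripts were called higher and 0.169% lower in this comparison. Over all transcripts, Tnfsf8, Hcar2 and Pdcd1 ranked 2nd, 3rd and 4th by log2 fold change in this comparison. Among the 55 called higher with no overlap of the libraries, the next was NM_001040654, with a log2 fold change of 2.64. It is 1 of 2 transcripts of the cell cycle inhibitor gene Cdkn2a. Sh2d1b1, a signaling adaptor, followed with 2.42, and Tnfsf13b, which encodes the B cell factor BAFF, with 1.81. Between the repopulated groups, Tnfsf8 did not overlap: its highest MIA + MG-REP library was at 32.9 TPM and its lowest Saline + MG-REP library at 48.4 TPM, a ratio of means of 0.57. For Pdcd1 and Hcar2 the libraries of the repopulated groups overlapped, with ratios of 0.73 and 0.85. In control chow, MIA and Saline overlapped for Tnfsf8 and Hcar2, whereas every MIA + CTRL library was below every Saline + CTRL library for Pdcd1 (ratio of means 0.69).

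The chow groups also differed in the sex of the mice that the libraries came from. Xist, which is transcribed from the inactive X chromosome of females, was at 159 to 174 TPM in all 6 MG-REP libraries, and 4 Y-linked genes summed to at most 0.62 TPM there. In both CTRL groups library 1 was of the same kind, with 124 and 140 TPM of Xist, whereas libraries 2 and 3 had at most 0.29 TPM of Xist and at least 268 TPM of the Y-linked genes. Set against library 1 of Saline + CTRL alone, the lowest Saline + MG-REP library was 24.2-fold higher for Tnfsf8, 7.23-fold for Pdcd1 and 4.97-fold for Hcar2. In MIA offspring the corresponding values were 10.6-fold, 7.82-fold and 3.68-fold. For Hcar2, library 1 was the highest of the 3 CTRL libraries in both groups. With 1 such library a group, these ratios have no replicate check.

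Repopulated microglia were also compared with the younger microglia of the same kind of dam. All 3 genes were higher in Saline + MG-REP than in E17 Saline (13.6% of transcripts called higher), P7 Saline (11.3%) and P20 Saline (10.8%). These comparisons share the Saline + MG-REP libraries, so the limits given above for the comparison with Saline + CTRL hold here too. Tnfsf8 differed by log2 fold changes of 5.61, 5.58 and 5.01 (limma adjusted p at most 1.35e-13), and Pdcd1 by 3.58, 4.11 and 3.77 (limma adjusted p at most 3.71e-10). Hcar2 differed by 3.37 from E17 Saline (limma adjusted p = 2.06e-05), by 3.20 from P7 Saline (adjusted p = 4.43e-05) and by 2.10 from P20 Saline (adjusted p = 0.0037). The last value rested on the spread of all groups: with only the 6 libraries compared, the limma adjusted p was 0.115, and without P20 Saline library 3 the log2 fold change was 3.12 (limma adjusted p = 9.60e-07). In MIA offspring, as a description, the differences of MIA + MG-REP from E17, P7 and P20 MIA were 4.68, 4.73 and 4.13 for Tnfsf8, 3.40, 3.13 and 3.10 for Pdcd1, and 3.50, 3.10 and 2.49 for Hcar2. Against P20 MIA, these ranked 1st, 5th and 8th of all transcripts. Sex differed along with age: the Y-linked genes summed to at most 0.62 TPM in the MG-REP libraries and 0.59 TPM in the P20 libraries. They summed to 180 to 258 TPM at E17 and, except for P7 MIA library 2 (0.1 TPM), to 125 to 285 TPM at P7.

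**Figure D2:**
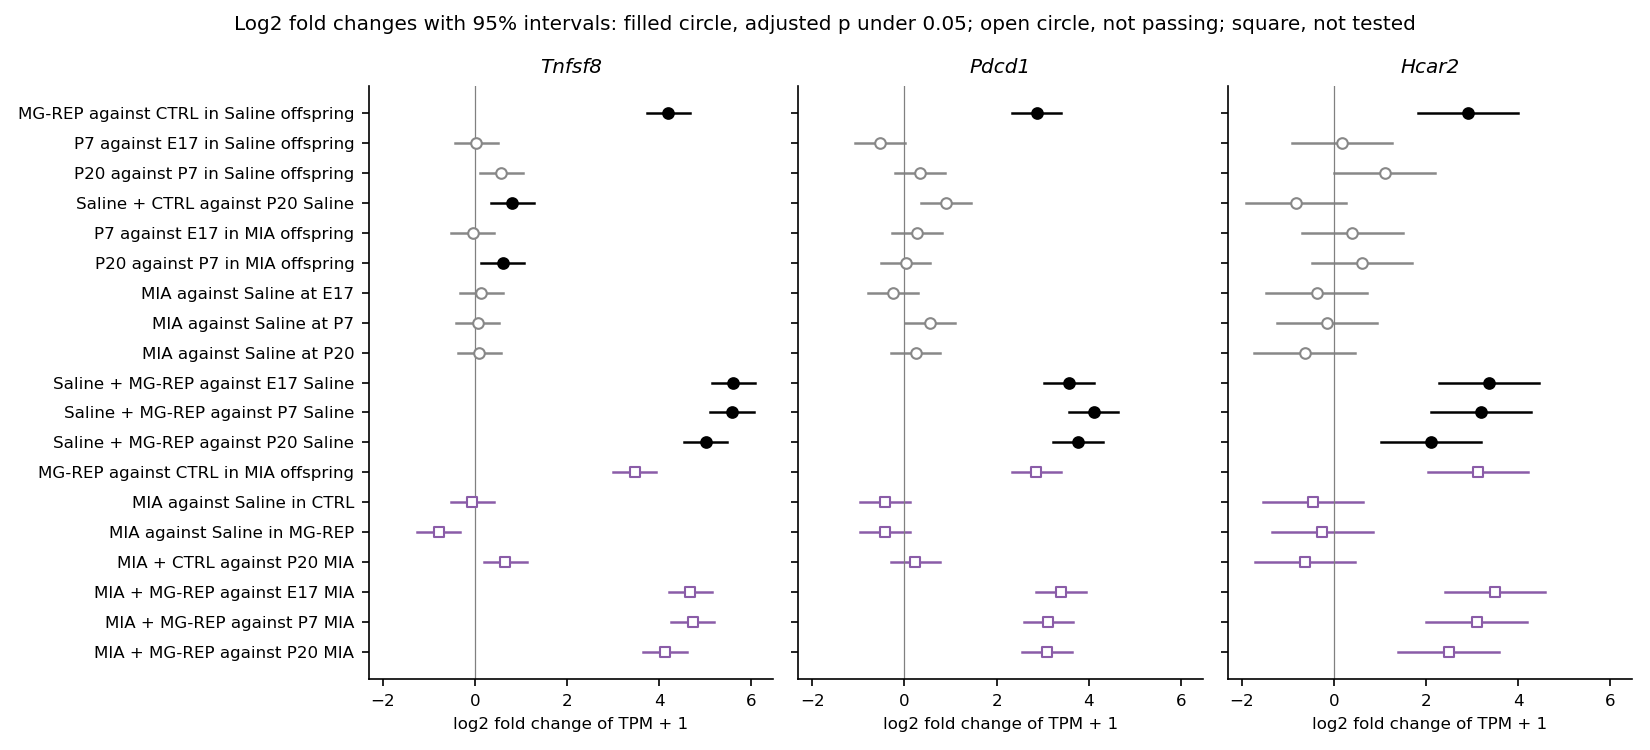
Log2 fold changes of TPM + 1 for each gene (x axis) in 19 comparisons (rows) with 95% intervals from the limma fit. Filled circles passed an adjusted p under 0.05, open circles did not, and squares use the libraries by which the genes were chosen and were not tested. The tested MG-REP comparisons lie between 2.10 and 5.61. Those among the E17, P7 and P20 groups, whether between ages or between MIA and Saline, lie between -0.64 and 1.10.

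During development, Tnfsf8 was higher at P20 than at P7 at levels near 0 TPM, and Pdcd1 and Hcar2 were not called. From E17 to P7, none of the 3 was called in Saline (4.32% of transcripts called in either direction) or MIA offspring (2.39%), with log2 fold changes between -0.53 and 0.40. From P7 to P20, Tnfsf8 rose in MIA offspring by 0.60 ± 0.23 on the log2 scale (limma adjusted p = 0.0416), where 13.1% of transcripts were called higher. The call was lost with only the 6 libraries compared (limma adjusted p = 0.0546), a fit in which Hcar2 was called instead (0.61, limma adjusted p = 0.0468). It was also lost with quantile normalization (0.60), without P7 MIA library 2 (0.48) or 3 (0.58) and without P20 MIA library 2 (0.45) or 3 (0.66), the values in brackets being log2 fold changes. In Saline offspring it differed by 0.57 ± 0.23 without passing (limma adjusted p = 0.053), although its P7 and P20 libraries did not overlap and 16.1% of transcripts were called higher. Without P20 Saline library 2 it passed, at 0.79, and without library 3 it was 0.36 (limma adjusted p = 0.265). By mean TPM, Tnfsf8 was 5.21-fold higher at P20 than at P7 in Saline and 4.02-fold higher in MIA offspring, a size that the TPM + 1 scale understates at such levels. With a pseudocount of 0.1 the log2 fold changes were 1.61 in Saline (limma adjusted p = 0.0234) and 1.87 in MIA offspring (limma adjusted p = 0.00943). Hcar2 and Pdcd1 did not pass in either with all groups in the fit, and the Hcar2 difference of 1.10 in Saline offspring was 1.83 and passed without P20 Saline library 1, and was 0.08 without library 3. The change between P7 and P20 was not shown to differ between offspring (limma adjusted p = 0.998 for each gene). P7 and P20 also differed in sex: the Y-linked genes summed to at most 0.59 TPM in the P20 libraries. At P7 they summed to 125 to 285 TPM in all libraries but P7 MIA library 2 (0.1 TPM). With Xist as a covariate the Tnfsf8 difference in Saline offspring was 0.55 (limma adjusted p = 0.0644).

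From P20 to P60 on control chow, Tnfsf8 was called higher in Saline offspring by 0.81 ± 0.23 on the log2 scale (limma adjusted p = 0.047), where 1.02% of transcripts were called higher, and its mean TPM was 2.75-fold higher. This call was lost in 7 of 13 other fits, among them those without P20 Saline library 1 (0.82) or 2 (0.59) or Saline + CTRL library 1 (0.81) or 3 (0.61), and P20 library 3, at 1.28 TPM, overlapped CTRL library 2, at 1.23 TPM. Pdcd1 differed by 0.90 ± 0.26 (limma adjusted p = 0.0552), with no overlap. Hcar2 differed by -0.82 ± 0.53 (limma adjusted p = 0.48), and by 0.20 without P20 Saline library 3. The ages also differed in sex: Xist was at 172 to 193 TPM in all 6 P20 libraries, while 2 of 3 libraries of each CTRL group had at most 0.29 TPM. With Xist as a covariate, Tnfsf8 differed by 1.00 without passing (limma adjusted p = 0.108), Pdcd1 by 0.87 (limma adjusted p = 0.268) and Hcar2 by -0.10 (limma adjusted p = 0.979). In MIA offspring, as a description, the differences were 0.66 for Tnfsf8, 0.24 for Pdcd1 and -0.63 for Hcar2.

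Maternal immune activation by itself did not give a call for any of the 3 genes before adulthood. At E17, P7 and P20, 0%, 0% and 0% of transcripts were called between MIA and Saline by limma, while 585, 335 and 457 had an unadjusted p under 0.05. Pdcd1 at P7 was among the latter: every P7 MIA library (2.02 to 2.93 TPM) was above every P7 Saline library (0.68 to 1.96 TPM), a log2 difference of 0.56 with a 95% interval of 0.02 to 1.09 (limma adjusted p = 1). The intervals of Tnfsf8 lay between -0.41 and 0.61 at the 3 ages. Those of Hcar2 reached from -1.73 to 0.94. At P20 the Hcar2 difference was -0.64, and it was 0.38 without P20 Saline library 3.

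P20 Saline library 3 had 222 TPM of Hcar2 from an estimated 1501 reads, against 18.9 and 35.4 TPM in libraries 1 and 2. Tnfsf8 at 1.28 TPM and Pdcd1 at 1.78 TPM were not at MG-REP levels in it. The library also had the highest Cd274 level of all 30 libraries, 72.4 TPM, and the highest Ptgs2 level outside Saline + MG-REP, 156 TPM. It had the highest Tnf level of all 30 libraries, 69.2 TPM, against 16.4 and 27.0 TPM in libraries 1 and 2. Its Tnfsf9 level of 430 TPM, against 73.9 and 114 TPM in libraries 1 and 2, was above those of 2 Saline + MG-REP libraries (351 and 377 TPM). Its neutrophil marker sum of 345 TPM lay between those of libraries 1 and 2 (260 and 704), as did its monocyte marker sum of 87.5 TPM (63.0 and 103). The part of any technical or biological feature of this library in its Hcar2 level was not tested.

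The receptor gene of CD30 ligand was at 0 to 0.46 TPM in the P60 libraries, so low that only a large change would be seen. Tnfrsf8 averaged 0.11 TPM in Saline + MG-REP and 0.17 TPM in Saline + CTRL, and 0.31 against 0.30 TPM in MIA offspring, and its highest group means were 1.73 TPM in E17 MIA and 1.55 TPM in P7 Saline. The list of CD30 axis genes (receptor, TRAF adaptors, NF-kB subunits and their regulators) had 14 of 16 genes in 17 transcripts, of which 2 were called higher, 3 lower and 12 not in Saline offspring, where 11.9% of all transcripts were called higher and 14.9% lower. None was called in MIA offspring (0.387% and 0.169% of all). Rel (0.70) and 1 of 2 Nfkb2 transcripts (0.59), both NF-kB subunits, rose on the log2 scale. Map3k14, the kinase NIK of the noncanonical NF-kB pathway, decreased by 0.70, the adaptor Traf5 decreased by 0.64, and the subunit Rela decreased by 0.57 (limma adjusted p 0.000224 to 0.0394 for these 5). The median log2 fold change of the list was 0.03, against -0.14 for all transcripts. With only the libraries of both groups in the fit, 2 calls were left in place of 5, and without Saline + CTRL library 1 there were 3.

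Other ligands of the TNF superfamily moved in both directions in Saline offspring. Of 17 listed ligands besides Tnfsf8, 8 were measured, with 4 called higher and 2 lower, where 11.9% and 14.9% of all transcripts were. Their median log2 fold change was 0.34, against -0.14 for all transcripts. Tnfsf9, which encodes 4-1BB ligand, rose from a mean of 53.9 to 453 TPM (log2 fold change 3.04 ± 0.41, limma adjusted p = 3.71e-06). Tnfsf13b rose from 29.9 to 121 TPM, Tnf from 14.6 to 56.3 TPM, and Tnfsf14, which encodes LIGHT, from 1.07 to 3.04 TPM. Ltb (lymphotoxin beta) fell from 13.9 to 5.68 TPM and Tnfsf10 (TRAIL) from 21.0 to 10.7 TPM. In MIA offspring Tnfsf13b was the only one called, with 25.3 TPM in MIA + CTRL and 88.9 TPM in MIA + MG-REP (log2 fold change 1.81 ± 0.29, limma adjusted p = 0.00135). Tnfsf13b was thus called in both kinds of offspring, and its level in MG-REP was 80.3 to 158 TPM in the 6 libraries, against 17.03 to 34.2 TPM in the 6 CTRL libraries.

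Among the partners of PD-1, the ligand gene Cd274 rose in Saline offspring and Pdcd1lg2 had no value in the table. Cd274 measured 41.0, 53.9 and 54.3 TPM in Saline + MG-REP and 24.3, 20.6 and 23.4 TPM in Saline + CTRL (log2 fold change 1.09 ± 0.33, limma adjusted p = 0.0172). In MIA + MG-REP it measured 49.0, 49.7 and 34.9 TPM and in MIA + CTRL 28.5, 17.9 and 19.1 TPM. The libraries of MIA offspring did not overlap either, but the difference of 1.01 ± 0.33 did not pass (limma adjusted p = 0.319). Of 21 listed checkpoint genes besides Pdcd1, 12 were measured, with 1 called higher and 4 lower in Saline offspring, where 11.9% and 14.9% of all transcripts were, and 0 in MIA offspring (0.387% and 0.169%). Their median log2 fold change in Saline offspring was -0.30, against -0.14 for all transcripts. Lag3, another inhibitory receptor, fell from 928 to 309 TPM, Sirpa, the receptor of CD47, from 55.9 to 28.8 TPM, Cd200r1, an inhibitory receptor of myeloid cells, from 31.4 to 13.6 TPM, and the costimulatory ligand gene Cd80 from 28.8 to 16.3 TPM (limma adjusted p 0.000295 to 0.00218).

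Hcar1, the lactate receptor gene next of kin to Hcar2, was not called in either comparison. It averaged 1.05 TPM in Saline + MG-REP and 1.98 TPM in Saline + CTRL (limma adjusted p = 0.17), and 1.93 against 2.12 TPM in MIA offspring. Of 23 listed genes of HCAR2 signaling, prostaglandin synthesis and ketone body handling, 16 were measured in 17 transcripts, with 1 called higher and 3 lower in Saline offspring, shares near or below the 11.9% and 14.9% of all transcripts, and 0 in MIA offspring (0.387% and 0.169%). Their median log2 fold change in Saline offspring was -0.35, against -0.14 for all transcripts. Ptgs2, which encodes cyclooxygenase-2, rose from 43.4 to 435 TPM in Saline offspring (log2 fold change 3.29 ± 0.30, limma adjusted p = 8.34e-09). In MIA offspring it measured 65.2, 64.4 and 51.4 TPM in MG-REP and 47.4, 39.2 and 32.8 TPM in CTRL without a call. Hpgds (prostaglandin D synthase) decreased by 1.15, the monocarboxylate transporter gene Slc16a1 decreased by 1.11 and Ptgs1 (cyclooxygenase-1) decreased by 0.81 on the log2 scale (limma adjusted p 4.97e-06 to 0.0063).

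**Figure D3:**
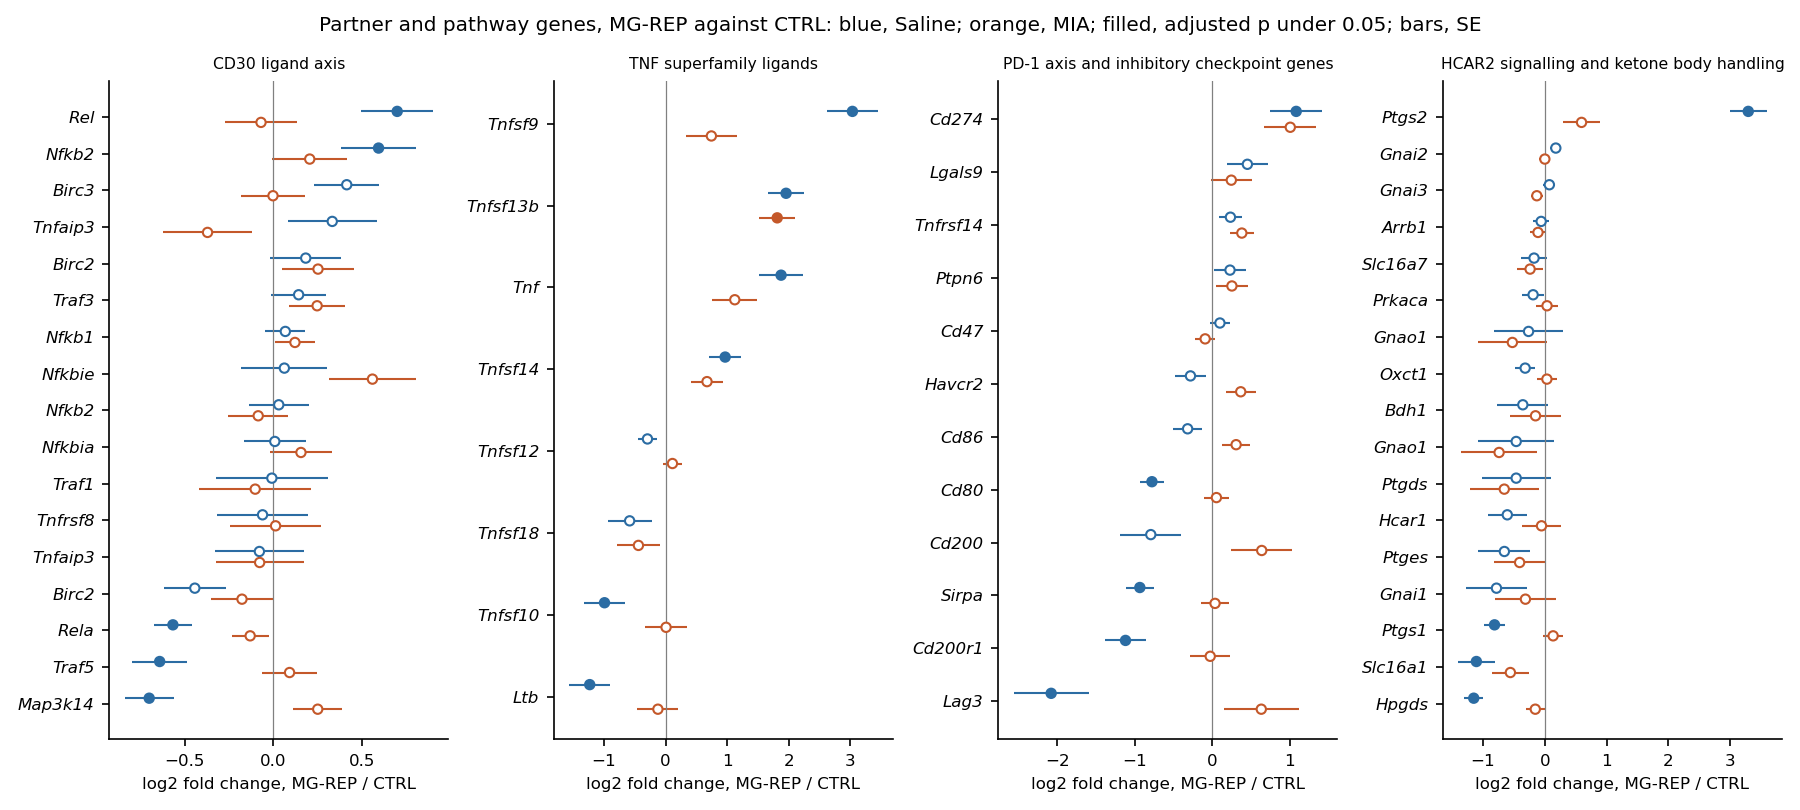
Log2 fold changes of MG-REP against CTRL (x axis, bars show SE) for the measured genes of 4 lists, Saline in blue and MIA in orange, with filled points for an adjusted p under 0.05. A gene named in 2 rows has 2 transcripts. In Saline offspring 8 transcripts were called higher and 12 lower, and in MIA offspring only Tnfsf13b.

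PD-1 and CD30 ligand are best known from lymphocytes, so markers of other CD11B+ or trailing cells were examined in the same libraries. Of 20 listed T cell markers, 7 were measured, and Cd3d, Cd3e, Cd3g, Cd8a, Lck and Trac were among the 13 with no value. The measured T cell markers summed to 6.14 to 10.2 TPM in Saline + MG-REP and 7.40 to 12.2 TPM in MIA + MG-REP, below the 15.3 to 18.8 TPM of Saline + CTRL and the 14.1 to 21.1 TPM of MIA + CTRL. Cd4 and Icos were the highest of these markers in both CTRL groups and were lower in both MG-REP groups with no overlap. Cd4 was at 2.16 to 2.55 TPM in Saline + MG-REP against 6.91 to 8.56 TPM in Saline + CTRL. Icos was at 0.22 to 0.84 against 3.30 to 6.19 TPM there. The measured markers thus did not fall as a set: Lat, Tcf7 and Cd247 overlapped in both kinds of offspring. Cd28 overlapped in Saline offspring and was lower with no overlap in MIA + MG-REP. Cd5 was higher in Saline + MG-REP, 1.85 to 1.97 against 0.58 to 1.41 TPM, and overlapped in MIA offspring. Markers of NK cells (7 of 10 measured) summed to 4.97 to 15.8 TPM in Saline + MG-REP against 17.1 to 42.7 TPM in Saline + CTRL, and overlapped in MIA offspring (16.1 to 29.5 against 17 to 36.8 TPM). Those of B cells (3 of 10 measured) were lower in both MG-REP groups, at most 2.64 TPM against at least 2.92 TPM.

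Neutrophil markers (11 of 12 measured), of interest because neutrophils express Hcar2, summed to 64.7, 5886 and 353 TPM in Saline + MG-REP, 854, 1005 and 557 TPM in MIA + MG-REP, 841 to 967 TPM in Saline + CTRL and 640 to 789 TPM in MIA + CTRL. The Saline + MG-REP library with the least of them, library 1, had 231 TPM of Hcar2, and library 2, with the most, had 263 TPM. Without library 2, the log2 fold changes in Saline offspring were 4.27 for Tnfsf8, 2.82 for Pdcd1 and 2.83 for Hcar2, all called (limma adjusted p at most 0.00108). Monocyte markers (8 of 10 measured) summed to 144 to 540 TPM in Saline + MG-REP, above the 99.0 to 135 TPM of Saline + CTRL, but to 81.1 to 125 TPM in MIA + MG-REP, overlapping the 82.0 to 107 TPM of MIA + CTRL. The members of that list did not move together. Itga4 was at 58.1 to 79.5 TPM and Ccr2 at 49.9 to 64.1 TPM in Saline + MG-REP, against at most 10.9 and 19.6 TPM in Saline + CTRL. In MIA + MG-REP they were at 9.79 to 12.3 TPM and 20.8 to 29.8 TPM, against at most 11.3 and 19.0 TPM in MIA + CTRL. Ly6c2, Plac8, Chil3, Hp and Ifitm6 spread widely in Saline + MG-REP, with lowest libraries far below those of Saline + CTRL (Ly6c2 0.30 against 6.67 TPM, Chil3 0.47 against 14.9 TPM) and highest libraries that, except for Plac8, were above all of them. Border macrophage markers (7 of 10 measured) were higher in Saline + MG-REP than in Saline + CTRL, 688 to 1321 against 443 to 595 TPM, and lower in MIA + MG-REP than in MIA + CTRL, 273 to 409 against 428 to 457 TPM. The higher sum in Saline + MG-REP was that of Pf4, at 408 to 901 against 122 to 156 TPM. Cd209f (0.25 to 0.74 against 20.6 to 28.3 TPM) and Cd163 (at most 0.06 against at least 0.27 TPM) were lower there, and the other 4 markers overlapped. Dendritic cell markers (7 of 10 measured) were higher in both, 1135 to 1522 against 299 to 415 TPM in Saline and 405 to 486 against 301 to 367 TPM in MIA offspring. Bst2, an interferon-induced gene, made up most of these sums, with 1072 to 1442 against 224 to 322 TPM in Saline and 317 to 403 against 234 to 277 TPM in MIA offspring. Cd209a (4.99 to 8.81 against at least 15.9 TPM), Zbtb46 and Itgae were lower in Saline + MG-REP with no overlap. The part of these cells in the levels of the 3 genes was not tested.

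**Figure D4:**
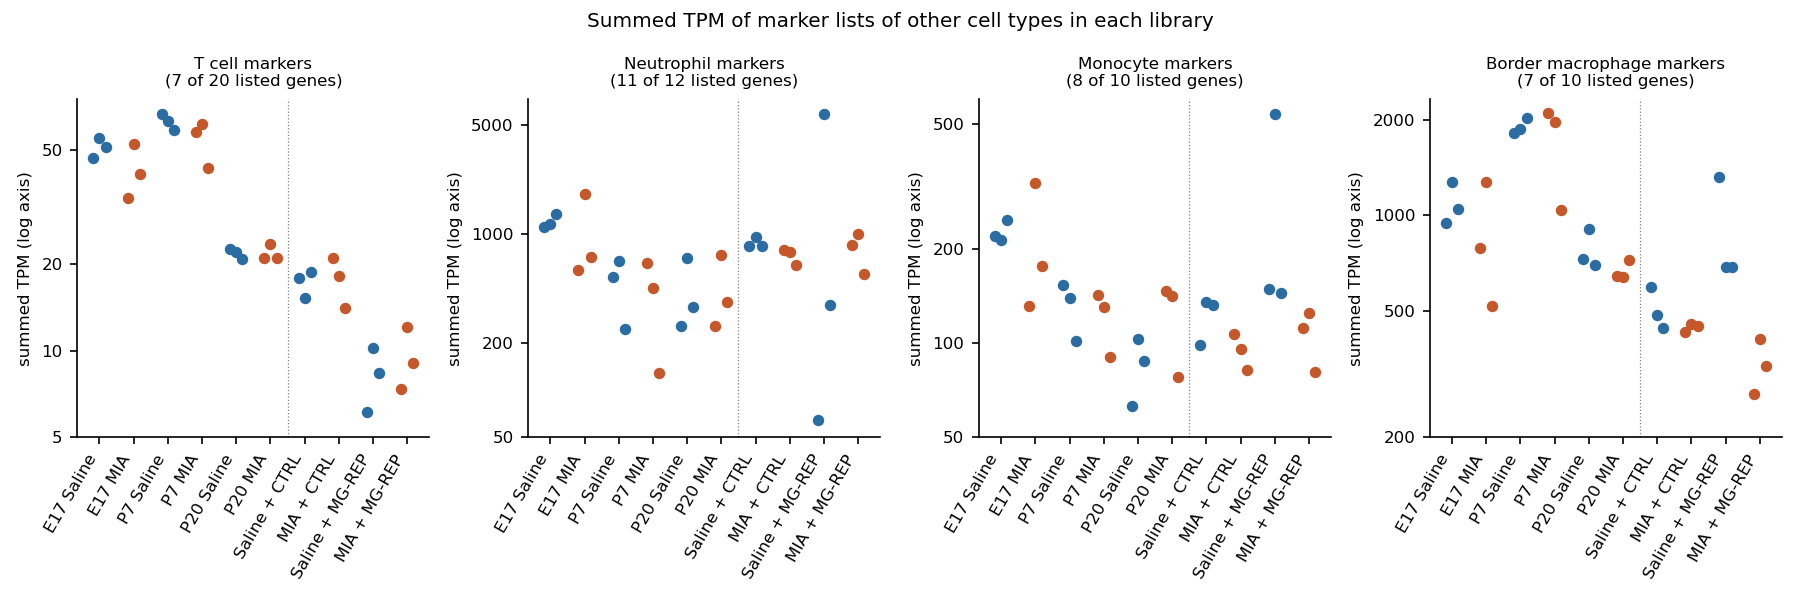
Summed TPM (log axis) of the measured markers of T cells, neutrophils, monocytes and border macrophages in each library, with 3 points per group, Saline in blue and MIA in orange. The T cell sums of the 6 MG-REP libraries are the lowest of all 30, and library 2 of Saline + MG-REP has the highest neutrophil and monocyte sums.

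Across all 30 libraries, Tnfsf8 and Pdcd1 had a Pearson r of 0.97 on log2(TPM + 1), Tnfsf8 and Hcar2 of 0.87, and Pdcd1 and Hcar2 of 0.83. These values describe points that share 6 MG-REP libraries far from the rest. Over the 24 libraries without MG-REP they were 0.58, 0.31 and 0.05. Of 12641 transcripts with a mean of at least 1 TPM, those most like Tnfsf8 over 30 libraries, apart from Pdcd1, were Haao (0.95), Cdkn2a (0.94, transcript NM_001040654), Slamf9 (0.93), Eif4e3 (0.92) and Ctsh (0.91). Those most like Pdcd1 were the same Cdkn2a transcript (0.94), Haao (0.93), Tns4 (0.92), Slamf9 (0.90) and Pxdc1 (0.90), apart from Tnfsf8. Those most like Hcar2 were Prr33 (0.91), Bcl2a1a (0.89), Itpripl2 (0.88), Cxcl16 (0.85) and Cd244 (0.85), apart from Tnfsf8. All of these are in the REP-AM module, which holds 1134 of the 14225 transcripts. The authors clustered that module from these same libraries, so the shared label is not independent support. Haao, an enzyme of tryptophan breakdown, had means of 18.1 TPM for Saline + CTRL and 74.6 TPM for Saline + MG-REP, and of 14.3 and 47.0 TPM in MIA offspring. This Cdkn2a transcript averaged 0 and 6.28 TPM in Saline offspring and 0.22 and 6.60 TPM in MIA offspring. The other, NM_009877, averaged 0.17 and 10.8 TPM in Saline offspring and 0.12 and 1.74 TPM in MIA offspring, and how reads common to both were assigned is not given in the sources used here.

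Outside the MG-REP libraries, where the range of the genes was small, other genes took these places. Tnfsf8 was then most like Zfp677 (0.92), 9630028I04Rik (0.92), Ipcef1 (0.90), Zfp874a (0.88) and Tnfsf13b (0.88), of which the first 4 belong to the adult microglia module (AM). Pdcd1 was most like Txnrd2 (0.82), I830077J02Rik (0.80), Cd101 (0.80), 1500011K16Rik (0.75) and Galnt3 (0.75). Hcar2 was most like Tmem150a (0.82), Prr33 (0.80), Sowahc (0.78), Mroh1 (0.77) and Cd274 (0.76). By the sum of all transcripts of a gene, P20 Saline library 3 was the highest of the 24 libraries for 4 of these last 5. How far the likeness of those 4 rests on that library was not tested. Mroh1 was at 43.8 TPM there by that sum. Its transcript that was like Hcar2 averaged 2.70 TPM in P20 Saline and was not ranked by itself.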

How the data were processed

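RNA of CD11B bead-isolated microglia was measured in 30 libraries, 3 in each of 10 groups taken from the labels. The authors made non-stranded poly(A) libraries, mapped 40-base reads to mm10 (Rsubread), assigned them to UCSC gene models with featureCounts, and dropped genes below a CPM of 2 in all but 2 or fewer libraries. The deposited values are TPM computed by the authors; their formula is not given in the sources used here. Count models were therefore not used.

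In R 4.3.3, limma 3.58.1 was run on log2(TPM + 1) of 14225 transcripts with all 10 groups in 1 model, a mean-variance trend, two-sided tests and Benjamini-Hochberg adjustment at 0.05. Fold changes are on the log2(TPM + 1) scale, which understates those of low genes. The fit was tested on simulated data with independent normal noise, which held no discrete low reads and no libraries that stand apart. That test therefore does not cover such features of these data. The members and gene lists were chosen with earlier results of these data known. Coordinates are from GENCODE and RefSeq on GRCm38.p6, to which 99.29% of identifiers matched. Reads per library were estimated from steps between low TPM (70.9% to 76.4% of low values within 0.2 of a whole read). For Tnfsf8 these steps implied a transcript of 2230 bases, not the annotated 3807.

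The genes named are the members, their direct partners, the called genes of each pathway list (at most 6 by size of change, 1 listed gene being not reported here), the 5 genes most like each member by Pearson r, the 3 ranked after the members and defining markers of other cells. Ptgs2, Cd274, Tnf and Tnfsf9 in P20 Saline library 3 were singled out after their values were seen. Replicate numbers recur in the groups. The deviations of same-numbered libraries correlated above 0.1 in all pairs only at P20 (0.10 to 0.24), where none of the 3 genes was called with or without the block. The largest correlations were at E17, 0.40 and 0.66 for numbers 1 and 2, with 0.0003 for number 3. In the other comparisons they ran from -0.53 to 0.28. Other fits used a pseudocount of 0.1, only transcripts with a mean of 1 TPM or more, scaling by median ratios, quantile normalization, the replicate block, only the groups compared, Xist as a covariate, no trend and each library left out. Python 3.11.15 and matplotlib 3.10.9 were used for the figures.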

Additional observations from a re-analysis of the deposited data

How the results depend on the processing

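In Saline offspring and against E17 and P7 Saline, the 3 genes were called as higher in MG-REP under each alternative. The alternatives refit the same libraries, and the genes were put forward as gained in both repopulated groups. The repeated calls are therefore not independent support. Against P20 Saline, 3 were called in each alternative but 1, in which only the libraries of both groups entered and 2 were called. The number of the 3 genes called was 0 at P20 against P7 in Saline offspring, and 1 with a pseudocount of 0.1, 1 without a trend and 0 to 1 with a library left out. It was 1 at P20 against P7 in MIA offspring, and 0 with quantile normalization and 0 to 1 with a library left out. With only the groups compared it was still 1, but Hcar2 (limma adjusted p = 0.0468) in place of Tnfsf8 (0.0546). It was 1 for Saline + CTRL against P20 Saline, and 0 with a pseudocount of 0.1, 0 with Xist as a covariate, 0 with only the groups compared, 2 without a trend and 0 to 1 with a library left out. Of the 5 calls in the CD30 list in Saline offspring, 2 were left with only the groups compared and 3 to 5 with a library left out. The cause was not tested for any of these.

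The sign of differences that had not passed changed in some fits. For Tnfsf8 at P7 against E17 in Saline offspring it was -0.073 with quantile normalization, and -0.060 to 0.12 with a library left out. With a library left out, Hcar2 ranged from -0.054 to 0.31 at P7 against E17 in Saline offspring and from -1.54 to 0.20 for Saline + CTRL against P20 Saline. Tnfsf8 ranged from -0.20 to 0.075 at P7 against E17 and Pdcd1 from -0.25 to 0.23 at P20 against P7, both in MIA offspring. Between MIA and Saline, Tnfsf8 ranged from -0.085 to 0.19 and Hcar2 from -0.29 to 0.079 at P7, and at P20 Tnfsf8 ranged from -0.13 to 0.31, Pdcd1 from -0.038 to 0.44 and Hcar2 from -1.37 to 0.38. The replicate block, fitted within an age only because across ages it cannot be estimated, changed no call of the 3 genes and no count of a list: with it, all 3 genes were called for MG-REP against CTRL in Saline offspring.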
